A study of Mus musculus with 6 samples.

Results

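The genes described are those of the haemoglobin-making red cell as they were read in leukaemia cells: the adult alpha globin copies Hba-a1 and Hba-a2, the adult beta globin copies Hbb-bs and Hbb-bt, and Alas2, Slc4a1, Epor and Tfrc. They were chosen by name from a list of 9 genes, of which 8 were matched among the 53458 genes of the annotation. Ahsp, the ninth, was not analysed here. RNA was from AML blasts (acute myeloid leukaemia cells) of mouse bone marrow, with the strain labelled C57BL/6 (per the methods, C57BL/6J donors and C57BL/6J.SJL recipients). The labels name 3 Cebpa-/p30 Tet2+/+ mice (19, 23 and 24) and 3 Cebpa-/p30 Tet2-/- mice (5, 7 and 8), with 1 library per mouse, and the comparison asks what the loss of TET2 adds in leukaemia with mutant Cebpa. Both genotypes keep the short p30 isoform of the transcription factor CEBPA and lack its long isoform. Per the methods of the study, bone marrow of donors carrying Mx1-Cre was placed in irradiated recipients, and the floxed alleles were recombined there by Poly(I)-Poly(C), which turns on Mx1-Cre in blood-forming cells and in other cells that respond to interferon. Recipients were collected when moribund. Live donor-derived cells were sorted for CD45.2 and against CD3, B220 and Ter119, so cells carrying the red cell surface antigen Ter119 were gated out before RNA was extracted from 500000 cells. The recipients were young adult females when irradiated, and their age at collection was not used here.

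Haemoglobin is a tetramer of alpha and beta globin chains, each holding a haem group with an iron atom. In the marrow, red cell precursors take up iron through the transferrin receptor TFRC, make haem by a pathway whose first step in these cells is catalysed by ALAS2, and fill up with globin mRNA after signals through the erythropoietin receptor EPOR and the factors GATA1, KLF1 and TAL1. SLC4A1, the band 3 anion exchanger, carries chloride and bicarbonate across the red cell membrane and anchors the skeleton beneath it. TFRC differs from the others in that dividing cells of most types use it, whereas globin, ALAS2 and SLC4A1 mark the red cell lineage.

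Libraries held between 13036643 and 32855343 estimated counts, and 22000 genes were tested. Blast genes were abundant in all 6 mice, with Mpo (myeloperoxidase) at 2661 to 4527 CPM (counts relative to library size, TMM-normalized), and Ptprc (CD45) at 762 to 1220 CPM. The 12 erythroid markers summed to 5.46 to 38.8 CPM in the Tet2+/+ mice and 4.50 to 15.4 CPM in the Tet2-/- mice. Mouse 19 stood apart in the erythroid genes, with the highest of the 6 levels in 8 of the 10 erythroid markers tested, and the results that rest on it are given with and without it. Tet2 as a whole gene was not lower in the Tet2-/- libraries, at 95.7 ± 16.0 CPM (SD, n = 3) against 83.8 ± 13 CPM (SD, n = 3), and its log2 fold change was 0.19 (adjusted p = 0.845, quasi-likelihood test of edgeR). This level includes reads from exons outside a floxed segment and does not check its removal. In these bulk libraries, fewer cells of a type and less RNA of a gene per cell cannot be told apart.

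The globin copies are so alike in sequence that the division of reads between them is uncertain, and their transcripts are shown first for that reason. The adult alpha globin genes lie on chromosome 11 of GRCm38, Hba-a1 (ENSMUSG00000069919) at chr11:32283511-32284465 and Hba-a2 (ENSMUSG00000069917) at chr11:32296489-32297298, both on the plus strand. Their main coding transcripts, Hba-a1-201 and Hba-a2-201, were identical at 99.8% of 538 aligned bases, and their coding sequences differed at 1 of 429 bases. The adult beta globin genes lie on the minus strand of chromosome 7, Hbb-bt (ENSMUSG00000073940) at chr7:103812524-103813996 and Hbb-bs (ENSMUSG00000052305) at chr7:103826534-103828096. Hbb-bs-201 and Hbb-bt-201 matched at 92.7% of 626 aligned bases, with 1 mismatch in 444 coding bases. The coding stretches around these mismatches are given from coding base 352 to 411 for alpha and from 388 to 444 for beta, with the base that differs in capitals.
Hba-a1-201: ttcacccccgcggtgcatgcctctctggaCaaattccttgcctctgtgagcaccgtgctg
Hba-a2-201: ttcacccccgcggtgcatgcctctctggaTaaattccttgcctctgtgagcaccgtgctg
Hbb-bs-201: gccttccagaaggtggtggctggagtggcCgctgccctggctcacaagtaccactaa
Hbb-bt-201: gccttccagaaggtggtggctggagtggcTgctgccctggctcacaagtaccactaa
Counted from the first coding base, with the first gene of each pair as the reference, the changes are C381T in alpha globin and C417T in beta globin. Of the stretches of 31 bases in Hba-a1-201, 71.3% also occur in Hba-a2-201, and of those in Hbb-bs-201, 66.9% occur in Hbb-bt-201. Between alpha and beta globin (Hba-a1-201 and Hbb-bs-201) the aligned bases were 64.5% identical and shared 0% of these stretches, so reads of the chains are separable, whereas reads of the copies are so only in part.

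The other 4 genes are single in this list. Alas2 (ENSMUSG00000025270) lies at chrX:150547375-150570638 on the plus strand, Slc4a1 (ENSMUSG00000006574) at chr11:102348824-102366203 on the minus strand, Epor (ENSMUSG00000006235) at chr9:21958897-21963506 on the minus strand and Tfrc (ENSMUSG00000022797) at chr16:32608920-32632794 on the plus strand. The mRNAs of Alas2 and Tfrc are known to carry iron-responsive elements, short hairpins bound by iron regulatory proteins when iron is scarce. In the 5′ end of the Alas2 mRNA such a hairpin blocks translation, and in the 3′ end of the Tfrc mRNA such hairpins protect the message from decay. The letters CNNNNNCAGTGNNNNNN with 5 paired bases (G with T allowed) on either side of the loop were found at 1 place in the 5′ UTR of Alas2-201, from base 90 to 106 of the transcript, and at 4 places in the 3′ UTR of Tfrc-201, starting at bases 3321, 3700, 3765 and 3812. They are shown because they tie the haem and iron genes together, as 29 bases in the sense direction with the loop in capitals, each beginning before the match and labelled by its own first base.
Alas2-201 from base 84: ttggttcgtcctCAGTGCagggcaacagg
Tfrc-201 from base 3315: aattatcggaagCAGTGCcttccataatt
Tfrc-201 from base 3694: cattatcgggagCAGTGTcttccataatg
Tfrc-201 from base 3759: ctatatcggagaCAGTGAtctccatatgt
Tfrc-201 from base 3806: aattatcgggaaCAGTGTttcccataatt
The same 4 elements are in Tfrc-204, an annotated retained-intron transcript that covers the 3′ end of the gene. Whether an element was in use cannot be read from these data.

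Promoters were compared because the globin genes shared the mouse in which they were highest. Of the 8 genes matched, 7 have an entry in the RefSeq promoter table of GRCm38.p6, which covers 250 bases before to 50 bases after a start, and Tfrc has 2. The 250 bases before the start are printed for Hba-a1 (chr11:32283422-32283671, plus strand), Hbb-bs (chr7:103827929-103828178, minus strand), Hbb-bt (chr7:103813924-103814173, minus strand) and Alas2 (chrX:150547167-150547416, plus strand). The RefSeq start of each of these genes lies inside the gene bounds given above, so part of each printed stretch is within those bounds. Capitals mark GATA, the core letters that GATA factors bind, and CACCC, the letters that Kruppel-like factors such as KLF1 bind, on either strand (TATC and GGGTG where the match is on the other strand).
Hba-a1 promoter: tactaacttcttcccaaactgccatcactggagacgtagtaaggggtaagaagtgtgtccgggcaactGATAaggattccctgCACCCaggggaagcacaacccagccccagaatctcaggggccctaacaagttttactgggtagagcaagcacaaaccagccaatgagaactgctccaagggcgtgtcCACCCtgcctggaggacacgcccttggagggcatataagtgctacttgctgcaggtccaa
Hbb-bs promoter: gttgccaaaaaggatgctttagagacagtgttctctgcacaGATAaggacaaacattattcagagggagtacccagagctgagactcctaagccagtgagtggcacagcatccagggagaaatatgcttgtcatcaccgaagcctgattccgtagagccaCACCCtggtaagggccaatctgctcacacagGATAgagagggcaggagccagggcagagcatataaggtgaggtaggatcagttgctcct
Hbb-bt promoter: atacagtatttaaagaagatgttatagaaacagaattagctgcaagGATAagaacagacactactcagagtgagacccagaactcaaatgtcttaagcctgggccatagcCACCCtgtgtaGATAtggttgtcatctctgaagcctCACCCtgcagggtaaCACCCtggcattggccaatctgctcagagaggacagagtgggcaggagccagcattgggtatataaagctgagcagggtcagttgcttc
Alas2 promoter: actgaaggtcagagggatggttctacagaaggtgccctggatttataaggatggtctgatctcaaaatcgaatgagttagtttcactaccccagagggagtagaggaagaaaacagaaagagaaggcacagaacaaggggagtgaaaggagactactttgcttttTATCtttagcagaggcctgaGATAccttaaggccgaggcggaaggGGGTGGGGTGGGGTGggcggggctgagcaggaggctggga
The CACCC nearest to the start began at base -60 in Hba-a1, -90 in Hbb-bs, -89 in Hbb-bt and -30 in Alas2, where the base before the start is -1. The 3 CACCC matches of Alas2 lie side by side.

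Over the whole window of 300 bases, GATA matched 1 time in Hba-a1, Hba-a2 and Epor, 2 times in Hbb-bs, Hbb-bt and Alas2, 1 time at the upstream start of Tfrc and 0 times at its downstream start. CACCC matched in each of these windows, from 1 time in Hbb-bs to 4 times at the downstream start of Tfrc. Such letters are common, and 57.9% of the 32851 promoters of the table hold GATA and 57.5% hold CACCC on either strand. CANNTG, the E-box letters that TAL1 with its partners can bind and which read the same on both strands, matched 5 times in Epor, 0 times in Alas2 and 1 or 2 times in the globins, and 72.3% of promoters hold it. In Hba-a1 and Hba-a2 the CANNTG match and the GATA match share 1 base. The promoters differ more in CpG, the dinucleotide at which TET2 acts on methylated DNA. The globin promoters hold 1 to 4 CG, Alas2 6, Epor 7 and both Tfrc windows 30, against a median of 7 over all promoters. Methylation was not analysed here, and the matches are descriptions of the sequence.

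**Figure D1:**
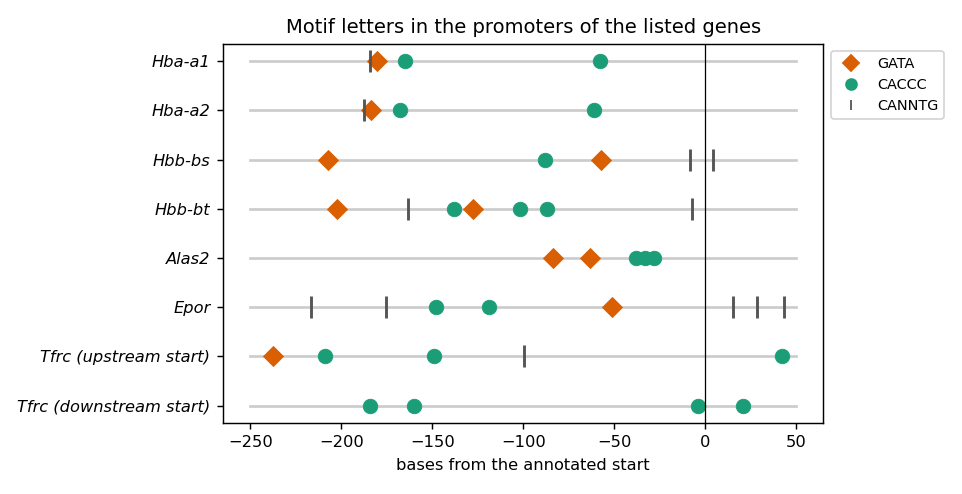
Positions of the letters GATA (diamonds), CACCC (circles) and CANNTG (ticks) on either strand in the RefSeq promoters of 7 genes, in bases from the annotated start (vertical line). The 3 CACCC of Alas2 lie side by side just before the start, and the downstream start of Tfrc has no GATA.

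Alpha globin was low in every library. Hba-a1 was at 3.11, 0.642 and 0.282 CPM in the Tet2+/+ mice 19, 23 and 24 and at 0.695, 0 and 1.57 CPM in the Tet2-/- mice 5, 7 and 8. The genotypes overlapped, with mouse 19 the highest and mouse 7 at 0, a count that allows up to 0.193 CPM in that library (3 counts, counting error only). Hba-a2 was at 7.66, 1.23 and 1.97 CPM in the Tet2+/+ mice and at 2.59, 0.193 and 0 CPM in the Tet2-/- mice. Here mouse 8 was at 0, which allows up to 0.163 CPM. Mouse 7 lacked Hba-a1 reads and mouse 8 lacked Hba-a2 reads, but the copies share most of their sequence, so their sum is also given. Summed alpha globin was at 10.8, 1.87 and 2.25 CPM against 3.29, 0.193 and 1.57 CPM, a mean of 4.96 ± 5.03 against 1.68 ± 1.55 (SD, n = 3 each). The log2 fold change, Tet2-/- over Tet2+/+, was -1.53 (standard error 1.02, adjusted p = 0.747, edgeR quasi-likelihood test, Benjamini-Hochberg adjustment over all genes). Without mouse 19 it was -0.27 (standard error 0.97, adjusted p = 0.965). By copy, the log2 fold change was -0.82 (standard error 1.25, adjusted p = 0.900, edgeR) for Hba-a1 and -1.90 (standard error 1.39, adjusted p = 0.772, edgeR) for Hba-a2. Without mouse 19 these became 0.69 (standard error 1.32, adjusted p = 0.925, edgeR) for Hba-a1 and -0.72 (standard error 1.48, adjusted p = 0.929, edgeR) for Hba-a2. Without mouse 5, the Tet2-/- mouse with most Hba-a2 reads, Hba-a2 was at -5.20. The difference between genotypes was thus within the spread of the mice.

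Beta globin was much higher in mouse 19 than in the other mice. Hbb-bs was at 48.3, 1.71 and 1.97 CPM in the Tet2+/+ mice 19, 23 and 24 and at 4.65, 5.07 and 2.88 CPM in the Tet2-/- mice 5, 7 and 8. Hbb-bt was at 83.0, 2.19 and 0.775 CPM and at 5.66, 9.70 and 3.20 CPM, in the same order of mice. In both copies mouse 19 was far above the rest, 9.52 and 8.55 times the next highest mouse, while the other Tet2+/+ mice were below all 3 Tet2-/- mice. Summed beta globin was at 131, 3.91 and 2.75 CPM against 10.3, 14.8 and 6.08 CPM, a mean of 46.0 ± 73.9 against 10.4 ± 4.35 (SD, n = 3 each). The log2 fold change was -2.15 (standard error 1.37, adjusted p = 0.734, edgeR) with all mice. Without mouse 19 the direction turned, to 1.63 (standard error 0.49, adjusted p = 0.437, edgeR), with means of 3.33 ± 0.820 (SD, n = 2) and 10.4 ± 4.35 (SD, n = 3). An exact two-sided permutation test of these 5 values gave p = 0.2. Neither direction passed the threshold, and the sign of the beta globin difference rested on 1 library.

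By copy, the log2 fold changes with all mice were -2.04 (standard error 1.23, adjusted p = 0.719, edgeR) for Hbb-bs and -2.21 (standard error 1.50, adjusted p = 0.752, edgeR) for Hbb-bt. Without mouse 19 they were 1.18 (standard error 0.46, adjusted p = 0.563, edgeR) and 2.04 (standard error 0.71, adjusted p = 0.518, edgeR). These were the 2 members past an unadjusted p of 0.05 without mouse 19, both higher in Tet2-/- mice, where 3.50% of all genes tested were. The copies thus changed sign together.

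**Figure D2:**
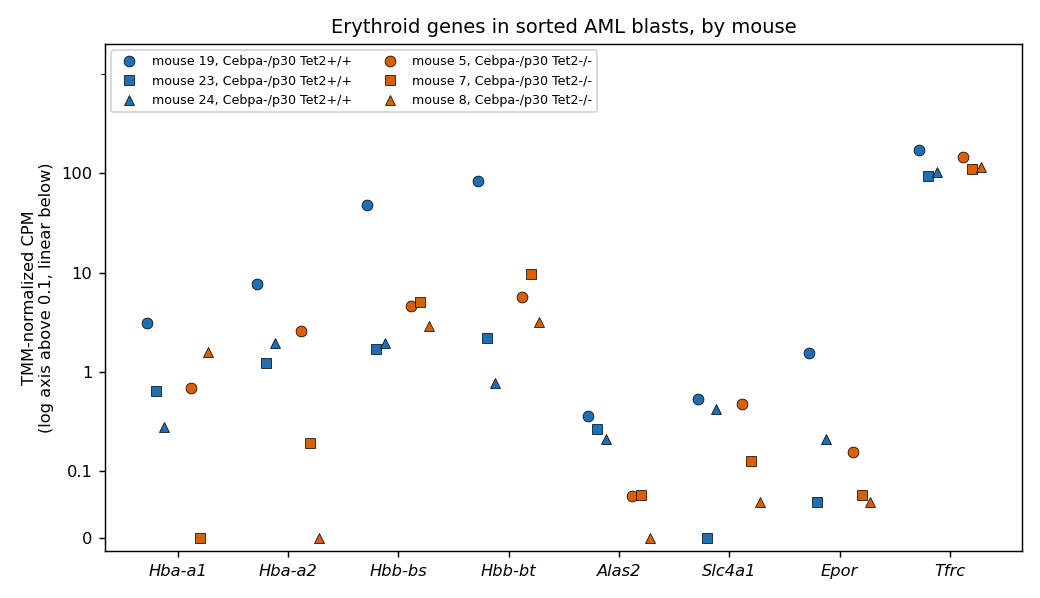
TMM-normalized CPM of the 8 genes in each mouse, on an axis that is logarithmic above 0.1 and linear below, with Cebpa-/p30 Tet2+/+ mice in blue and Cebpa-/p30 Tet2-/- mice in orange. Mouse 19 (blue circles) has the highest CPM of every gene, reaching 83.0 CPM in Hbb-bt, and Alas2 alone has no overlap between genotypes.

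The chains were not read in equal amounts. On the TPM scale, which is per transcript length, the ratio of summed beta to summed alpha globin was 18.0, 3.54 and 2.01 in the Tet2+/+ mice 19, 23 and 24, and 4.57, 134 and 10.4 in the Tet2-/- mice 5, 7 and 8. By counts the ratio was smaller, at 12.2, 2.09 and 1.22 and at 3.13, 76.7 and 3.86 in the same order. Beta exceeded alpha in all 6 mice on both scales, and the genotypes overlapped. The ratio of mouse 7 rests on 3 alpha globin counts against 230 beta globin counts. The mean log2 ratio was 2.33 ± 1.64 in the Tet2+/+ mice and 4.21 ± 2.54 in the Tet2-/- mice (SD, n = 3 each), a difference of 1.88 (exact permutation test, two-sided p = 0.4). With counts in place of TPM the difference was 1.63, and with each mouse left out in turn it lay between 0.46 and 2.89. Globin reads of the 4 copies were 0.0141% of all counts in mouse 19 (95% Wilson interval 0.0136% to 0.0147%, counting error only) and between 0.000545% and 0.00131% in the other 5 mice.

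**Figure D3:**
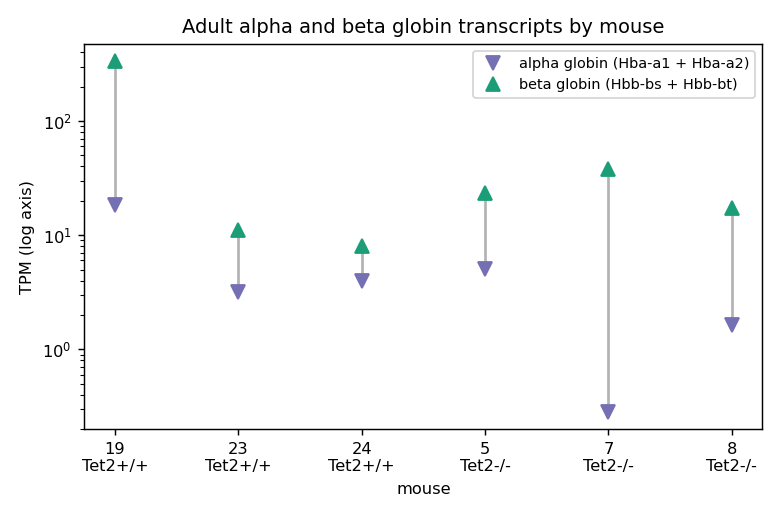
Summed TPM of the alpha globin copies (Hba-a1 and Hba-a2, downward triangles) and of the beta globin copies (Hbb-bs and Hbb-bt, upward triangles) in each mouse, on a log axis, joined by a line. Beta is above alpha in every mouse, least so in mouse 24 (ratio 2.01) and most in mouse 7 (ratio 134).

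The reads of the globins did not fall evenly on their annotated transcripts. In Hbb-bs, the 344-base retained-intron transcript Hbb-bs-202 took 45.5% to 100% of the reads by mouse, and the 628-base coding transcript Hbb-bs-201 took 0% to 54.5%. Hbb-bt has 1 annotated transcript, and on it lay 54.9%, 65.7% and 52.7% of the beta globin counts of Tet2-/- mice 5, 7 and 8 and 63.2%, 56.2% and 28.2% of those of Tet2+/+ mice 19, 23 and 24. Hbb-bs therefore had the higher TPM of the pair in every mouse, 233 against 99.1 TPM in mouse 19, although Hbb-bt had more reads in 5 of the 6 mice. For Hba-a1, the retained-intron transcript Hba-a1-202 took every read in mice 19, 24 and 5, while every Hba-a2 read was put on the coding Hba-a2-201. These shares come from a model that divides reads among transcripts of nearly the same sequence.

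Alas2, the haem synthesis enzyme of red cells, was the single gene of the list whose genotypes did not overlap in CPM. In TPM, Epor did not overlap either. Alas2 had 6, 5 and 3 counts in the Tet2+/+ mice 19, 23 and 24, and 2, 1 and 0 counts in the Tet2-/- mice 5, 7 and 8. In CPM this was 0.359, 0.268 and 0.211 against 0.0632, 0.0642 and 0. All 3 Tet2-/- mice were thus below all 3 Tet2+/+ mice, at levels of a few reads per library, and the 0 of mouse 8 allows up to 0.163 CPM. All 3 reads of mouse 24 were put on the retained-intron transcript Alas2-203. On the coding transcripts the estimated counts were 6.34, 4 and 0 against 2.31, 1.08 and 0, in the same order of mice, so there the genotypes overlapped. Per library read, the ratio of the summed counts, 3 over 14, was 0.145 with an exact 95% interval of 0.0266 to 0.518 that covers counting error only. Without mouse 19 the ratio was 0.162 (interval 0.0277 to 0.675). The fitted log2 fold change of -2.50 (standard error 0.84) depends on the prior count at such levels, and its adjusted p was 0.559 in edgeR's quasi-likelihood test, with an unadjusted p of 0.0206. The exact two-sided permutation test gave p = 0.1, the smallest that 3 mice against 3 allow. Over all genes tested, 7.99% did not overlap and were lower in Tet2-/- mice, so 1 of 8 genes is near that background, and 0 of 8 did not overlap and were higher, against 6.40%. Alas1, the form of the enzyme used in other tissues, was at 174 to 379 TPM, against 0 to 0.511 TPM for Alas2.

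Slc4a1, the band 3 anion exchanger, was at the limit of detection. Its counts were 9, 0 and 6 in the Tet2+/+ mice 19, 23 and 24, and 15, 2 and 1 in mice 5, 7 and 8, or 0.538, 0 and 0.423 CPM against 0.474, 0.128 and 0.0542 CPM. The genotypes overlapped, and the 0 counts of mouse 23 allow up to 0.161 CPM, above mice 7 and 8. The log2 fold change was -0.41 (standard error 1.18, adjusted p = 0.957, edgeR) with all mice and 0.23 (standard error 1.41, adjusted p = 0.979, edgeR) without mouse 19. The ratio of summed counts per library read was 0.809 (exact 95% interval 0.385 to 1.73), and 1.30 (0.493 to 3.99) without mouse 19. All of its reads lay on the coding transcript Slc4a1-201.

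Epor, the receptor through which erythropoietin keeps red cell precursors alive, was read mainly in mouse 19. Its level was 1.56, 0.0535 and 0.211 CPM in the Tet2+/+ mice 19, 23 and 24, and 0.158, 0.0642 and 0.0542 CPM in the Tet2-/- mice 5, 7 and 8, from 26, 1 and 3 counts and 5, 1 and 1 counts. Mouse 19 had 7.36 times the level of the next highest mouse, and the other 5 mice lay within a few reads of each other. The log2 fold change was -2.54 (standard error 1.20, adjusted p = 0.647, edgeR) with all mice and -0.34 (standard error 1.0, adjusted p = 0.957, edgeR) without mouse 19. The ratio of summed counts was 0.157 (exact 95% interval 0.0583 to 0.366, counting error only) and became 0.756 (0.192 to 3.52) without mouse 19. In CPM the difference between genotypes thus rested on the level of mouse 19. In TPM, Epor was at 0.529, 0.0635 and 0.0729 in mice 19, 23 and 24 and at 0.0452, 0.0191 and 0.0589 in mice 5, 7 and 8. On that scale the Tet2-/- mice were lower without overlap, also without mouse 19, from 1 to 5 counts in each of the other mice.

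Tfrc, the transferrin receptor, was the abundant gene of the list and the most even. It was at 170, 93.7 and 103 CPM in the Tet2+/+ mice 19, 23 and 24 and at 146, 110 and 115 CPM in the Tet2-/- mice 5, 7 and 8, a mean of 122 ± 41.6 against 124 ± 19.6 CPM (SD, n = 3 each). The log2 fold change was 0.02 (standard error 0.26, adjusted p = 0.995, edgeR), with the genotypes overlapping, and it was -0.32 on length-scaled counts and -0.13 with scaling by library size only. Without mouse 19 it was 0.33 (standard error 0.21, adjusted p = 0.715, edgeR), and the 2 remaining Tet2+/+ mice were then below all 3 Tet2-/- mice in CPM but not in TPM. Tfrc held 54.1% of the reads of the 8 genes in mouse 19 and 87.8% to 94.6% in the others. Its coding transcript Tfrc-201 took 71.3% to 84.3% of its reads and the retained-intron Tfrc-204, which holds the same iron-responsive elements, took 11.2% to 22.3%. Tfr2, the relative of TFRC that senses iron, was at 0.536 to 5.01 TPM, against 21.8 to 50.6 TPM for Tfrc.

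Ordered by median TPM over the 6 mice, the levels were 39.5 for Tfrc, 15.0 for Hbb-bs, 5.25 for Hbb-bt, 2.68 for Hba-a2, 1.20 for Hba-a1, 0.0678 for Alas2, 0.0612 for Epor and 0.0328 for Slc4a1. Each gene overlapped its neighbour in this order over the 6 mice. Within a mouse the order could differ. In mouse 19 both Hbb-bs (233 TPM) and Hbb-bt (99.1 TPM) were above Tfrc (47.7 TPM), and in mouse 7 Hbb-bs (26.6 TPM) was above Tfrc (21.8 TPM). These levels depend on a few reads placed on short transcripts. In mouse 7 all 79 Hbb-bs reads lay on the 344-base Hbb-bs-202, beside 1712 counts of Tfrc. The 166-base Tfrc-203 gave 22.9 of the 50.6 TPM of Tfrc in mouse 24, from 4 reads, and 0 TPM in mouse 7.

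Across the list, edgeR called 0 of 8 genes lower, where 0.0455% of all genes tested were called lower, and 0 of 8 higher, where 0.00% were. Without mouse 19 it also called 0, where 0.0329% of all genes were lower and 0.00% higher. At an unadjusted p under 0.05, 1 gene was lower (Alas2), against 5.11% of all genes tested. DESeq2 called 0 on the same counts among the 5 members to which it gave an adjusted p, where it called 1.48% of all genes lower and 0.268% higher, and 0 of the 6 with a p were under 0.05 unadjusted (5.03% of all genes lower and 3.52% higher). It gave no p for Hbb-bs and Hbb-bt and no adjusted p for Alas2. On length-scaled counts DESeq2 also called 0, where 1.47% of all genes were lower and 0.289% higher. There Alas2 had an unadjusted p of 0.00820, among 4.97% of all genes lower and 3.23% higher at an unadjusted p under 0.05, and an adjusted p of 0.208, while Hbb-bs and Hbb-bt had no p. The fitted change was below 0 for 7 of the 8 genes, with a median of -1.97, beside a median of 0.00159 over all genes tested. Without mouse 19 it was above 0 for 5 genes and below 0 for 3, with a median of 0.28. Then, in CPM, 3 of 8 genes did not overlap and were higher in Tet2-/- mice (Hbb-bs, Hbb-bt and Tfrc), against 12.7% of all genes tested, and 1 was lower (Alas2), against 15.1%.

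**Figure D4:**
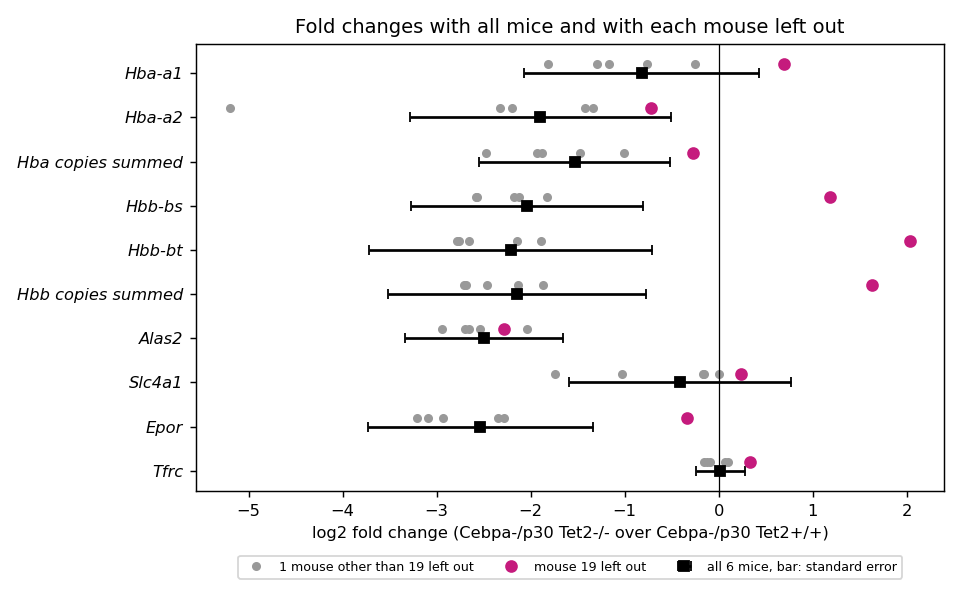
Log2 fold change of each gene and of the summed globin copies, Tet2-/- over Tet2+/+, from edgeR's quasi-likelihood test with all 6 mice (black squares, bars of 1 standard error), without mouse 19 (magenta) and without each other mouse (grey). The beta globin values cross 0 without mouse 19, and Alas2 stays between -2.94 and -2.03.

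In CPM, the 8 genes shared the mouse in which they were highest. Mouse 19 had the top CPM of all 8, whereas it was the top mouse in 11.7% of the 22000 genes tested. On the TPM scale it was the top mouse for 6 of them, the globins, Slc4a1 and Epor. Mouse 24 had more TPM of Alas2 (0.511 against 0.115 in mouse 19) and of Tfrc (50.6 against 47.7). The Alas2 value of mouse 24 comes from 3 reads, all on the retained-intron Alas2-203. Its Tfrc value includes 22.9 TPM from 4 reads on the short Tfrc-203, against 14.8 TPM in mouse 19. On the coding Tfrc-201, mouse 19 was the higher, at 17.6 against 10.8 TPM. The excess in CPM differed by gene: over the median of the other 5 mice it was 25.9-fold for Hbb-bt, 24.2-fold for Epor, 16.8-fold for Hbb-bs, 6.22-fold for Hba-a2, 5.59-fold for Alas2, 4.84-fold for Hba-a1, 4.19-fold for Slc4a1 and 1.55-fold for Tfrc. Over the next highest mouse it was 9.52-fold for Hbb-bs, 8.55-fold for Hbb-bt and 7.36-fold for Epor. It was only 2.95-fold for Hba-a2, 1.98-fold for Hba-a1, 1.34-fold for Alas2, 1.16-fold for Tfrc and 1.14-fold for Slc4a1. The mouse with the lowest CPM was not shared, being mouse 23 for 4 genes, mouse 8 for 2, and mice 7 and 24 for 1 each. Erythroid markers outside the list moved with this. In mouse 19, Klf1 was at 1.14 CPM against 0 to 0.282 in the other mice, Gata1 at 2.81 against 0.217 to 1.13 and Car1 (carbonic anhydrase 1) at 1.08 against 0 to 0.211. Their part in the globin values of mouse 19 was not tested.

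**Figure D5:**
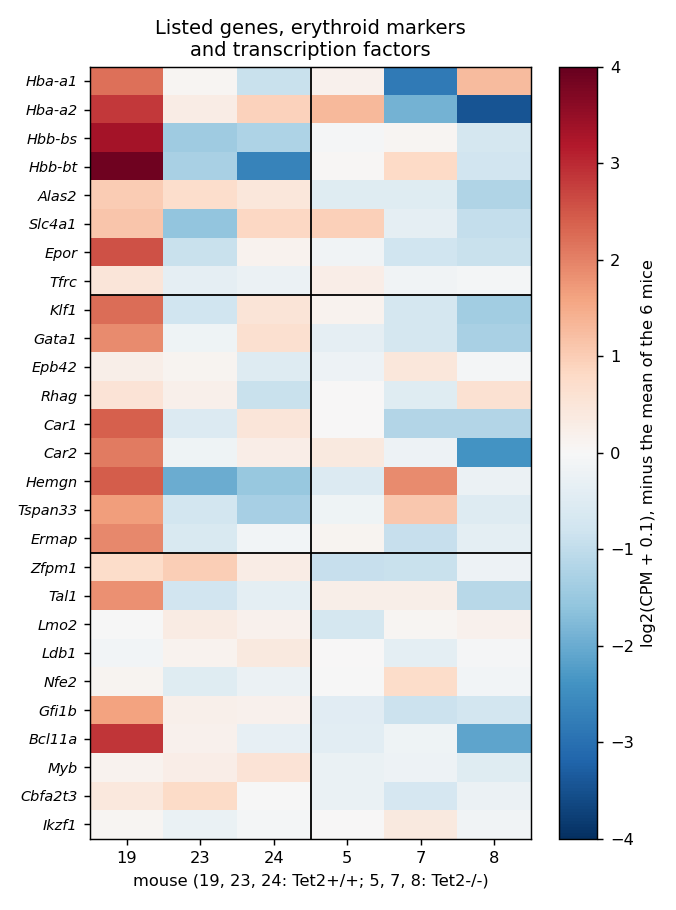
Log2(CPM + 0.1) of the listed genes (top), erythroid markers (middle) and the other erythroid transcription factors (bottom), minus each gene's mean over the 6 mice, from blue (below) to red (above). The column of mouse 19 is red for the globins, Epor, Klf1, Gata1 and Car1 and pale for Tfrc, Lmo2 and Ikzf1.

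Markers of other cells were examined in the same way. The 10 macrophage markers summed to 261 CPM in mouse 19 and up to 606 CPM in the others, and mouse 19 was the highest in 0 of 10. The megakaryocyte and platelet markers summed to 51.5 CPM in mouse 19 and up to 48.1 CPM in the others, with mouse 19 highest in 2 of 9 tested. The part of these cells in the values of mouse 19 was not tested. The sort gates out B and T cells by B220 and CD3. B cell markers were at 51.1 CPM and T and NK cell markers at 37.5 CPM in mouse 19, both below the highest of the other mice (82.9 and 40.9 CPM). The basophil and mast cell markers were at 405 to 487 CPM in Tet2+/+ mice and 172 to 356 CPM in Tet2-/- mice, and the myeloid blast markers at 9604 to 11418 CPM and 10050 to 12925 CPM.

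The remaining genes of the pathway were read from 7 lists with 101 genes, 91 of them tested, of which edgeR called 0 in either direction. Before adjustment, p was under 0.05 for 9 lower and 3 higher genes, against 5.11% and 2.99% of all genes. The median log2 fold change of the 91 genes was 0.06. Mouse 19 was the top mouse in 23 of them.

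The embryonic and minor globins were close to silent. Of 7 such genes, 4 had no read in any mouse and 6 had at most 3 counts in each mouse. Hbb-y, an embryonic beta-like globin, was at 0.419, 0.107 and 0.0705 CPM in the Tet2+/+ mice 19, 23 and 24 and at 0.0316, 0 and 0 CPM in the Tet2-/- mice 5, 7 and 8, with at most 7 counts in a library. Hbq1a and Hbq1b had 1 read each. As listed, Hbb-y did not overlap between genotypes, but the 0 of mice 7 and 8 allow up to 0.193 and 0.163 CPM, above mice 23 and 24. Its log2 fold change was -3.31 (standard error 1.18, unadjusted p = 0.0260, adjusted p = 0.583, edgeR). Without mouse 19 it was too low to be tested.

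The list of haem genes holds the enzymes that build it, carriers and the breakdown enzymes Hmox1 and Blvrb. Of 13 genes, 0 were called, 0 lower and 1 higher (Hmox1) had p under 0.05 before adjustment, and the median log2 fold change was 0.12. Alas1 was at 407 ± 126 CPM in Tet2+/+ and 350 ± 121 CPM in Tet2-/- mice (SD, n = 3 each), with a log2 fold change of -0.22. Ppox, which makes protoporphyrin, was at 65.2 ± 13.5 and 77.7 ± 33.1 CPM, and Fech, which inserts the iron, at 37.4 ± 6.11 and 27.1 ± 9.47 CPM. Hmox1, which breaks haem down and is also abundant in macrophages, was at 26.5, 33.2 and 14.4 CPM in the Tet2+/+ mice 19, 23 and 24 and at 85.2, 30.3 and 51 CPM in the Tet2-/- mice 5, 7 and 8. Its log2 fold change of 1.17 (standard error 0.44) had an adjusted p of 0.596 in edgeR's test, and its genotypes overlapped. Urod, an enzyme of the middle steps, did not overlap and was higher in Tet2-/- mice, at 26.9 ± 2.78 against 22.8 ± 2.50 CPM (SD, n = 3 each), as were 8.19% of genes averaging 1 CPM or more (adjusted p = 0.783, edgeR).

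Of 15 iron handling genes, 0 were called by edgeR, and the median log2 fold change was 0.21. Ftl1, the ferritin light chain that stores iron, was at 1545 ± 313 and 1813 ± 332 CPM, Pcbp2, an iron chaperone, at 532 ± 86.5 and 662 ± 34.6 CPM, and Ncoa4, which delivers ferritin for breakdown, at 420 ± 38.2 and 506 ± 218 CPM in Tet2+/+ and Tet2-/- mice (SD, n = 3 each). Pcbp1, the 1 gene at an unadjusted p under 0.05, was higher at 283 ± 40.4 against 207 ± 11.0 CPM, with an adjusted p of 0.603 in edgeR's test. Fth1, the ferritin heavy chain, likewise did not overlap, at 420 to 578 against 381 to 414 CPM (adjusted p = 0.678, edgeR). Among the 15 genes, 1 was higher at an unadjusted p under 0.05, where 2.99% of all genes were. Without overlap, 2 of the 15 were higher, where 8.19% of genes averaging 1 CPM or more were. Tfr2 had a log2 fold change of -1.12 (adjusted p = 0.692, edgeR). Slc40a1, the iron exporter ferroportin, ranged from 11.9 to 110 CPM in Tet2+/+ mice and from 1.79 to 56.8 CPM in Tet2-/- mice, a spread within each genotype larger than the difference between them.

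Of 21 genes of the red cell membrane and its skeleton, 19 were tested and 0 called by edgeR, with a median log2 fold change of 0.05. Those that other cells also use led in abundance, Cd47, the signal against engulfment, at 301 ± 39.6 and 379 ± 127 CPM, and Add1, the alpha adducin, at 185 ± 29.6 and 210 ± 55.2 CPM. Epb41, protein 4.1, was at 126 ± 9.77 and 125 ± 13.3 CPM. Cd59a, which guards cells against complement, was at 4.49, 1.28 and 2.04 CPM in the Tet2+/+ mice 19, 23 and 24 and at 0.253, 0 and 0.217 CPM in the Tet2-/- mice 5, 7 and 8. Its genotypes did not overlap, and its log2 fold change was -3.90 (standard error 0.91), with an adjusted p of 0.323 in edgeR's test. Of genes averaging 1 CPM or more, 7.75% were lower without overlap, as was 1 of the 9 such genes here. DESeq2 called Cd59a on the same counts (adjusted p = 0.00120), where it called 1.48% of all genes lower. Without mouse 19 edgeR gave Cd59a -3.26 with an adjusted p of 0.397. Slc2a1, the glucose carrier, was higher at an unadjusted p of 0.0456 and overlapped. Gypc (glycophorin C, found on many blood cells) overlapped, at 5.80, 0.482 and 2.18 CPM against 16.8, 3.21 and 6.73 CPM, with a log2 fold change of 1.66 (adjusted p = 0.690, edgeR).

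The erythroid transcription factors were the list with most low values in Tet2-/- mice. Of 12 genes, 0 were called by edgeR, 6 lower and 0 higher had p under 0.05 before adjustment (5.11% and 2.99% of all genes), and the median log2 fold change was -0.82. Among the 10 that averaged 1 CPM or more, 4 did not overlap and were lower, where 7.75% of such genes were. These were Zfpm1 (FOG1, the partner of GATA1), Gfi1b, Myb and Cbfa2t3 (ETO2, a corepressor in the TAL1 complex). Zfpm1 was at 9.37 ± 2.28 CPM in Tet2+/+ mice and 3.66 ± 1.15 CPM in Tet2-/- mice (SD, n = 3 each), or -1.36 in log2 fold change (standard error 0.35, adjusted p = 0.416, edgeR), and DESeq2 called it on the same counts (adjusted p = 0.0160). On these counts DESeq2 called 1.48% of all genes lower. Myb was at 286 ± 41.6 and 184 ± 19.1 CPM (log2 fold change -0.64, adjusted p = 0.482, edgeR). Gfi1b was at 2.29 ± 1.49 and 0.744 ± 0.126 CPM, and Cbfa2t3 at 58.4 ± 15.5 and 33.5 ± 5.30 CPM. Gata1 also did not overlap, at 0.589 to 2.81 against 0.217 to 0.506 CPM, and Bcl11a, the repressor of embryonic globins, was at 11.7 CPM in mouse 19 and at most 1.71 CPM in the others. Nfe2 and Ikzf1, factors that myeloid cells also use, were at 248 ± 51.4 and 337 ± 112 CPM and at 361 ± 43.3 and 415 ± 77.6 CPM. Without mouse 19, 3 of the 12 genes (Zfpm1, Myb and Cbfa2t3) were lower at an unadjusted p under 0.05, where 5.01% of all genes were, and the median was -0.70. The other 3 did not pass there, with Bcl11a moving from -2.41 to -0.68, Gata1 from -1.99 to -1.17 and Gfi1b from -1.60 to -0.93. Megakaryocyte and basophil or mast cells also use several of these factors. Their summed markers were at 29.3 to 51.5 and 405 to 487 CPM in Tet2+/+ mice and at 16.2 to 31.2 and 172 to 356 CPM in Tet2-/- mice, and their part in this result was not tested.

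Downstream of the erythropoietin receptor lie components that other cytokine receptors share. Of 16 genes, 0 were called by edgeR, and the median log2 fold change was 0.09. Ptpn6, the phosphatase SHP-1 that ends the signal, was at 542 ± 62.2 and 564 ± 149 CPM, Grb2, an adaptor, at 221 ± 11.8 and 234 ± 22.5 CPM, and Pim1, a kinase induced by STAT5, at 208 ± 66.0 and 224 ± 185 CPM. Socs2, an inhibitor induced by STAT5, was at 1.81 ± 0.886 and 1.03 ± 0.494 CPM. Gab1, a docking protein, was at 6.88, 11.9 and 6.84 CPM in the Tet2+/+ mice 19, 23 and 24 and at 2.56, 0.578 and 1.68 CPM in the Tet2-/- mice 5, 7 and 8. Its genotypes did not overlap, and its log2 fold change of -2.39 (standard error 0.57) had an adjusted p of 0.339 in edgeR's test and of 0.00207 in DESeq2 on the same counts. Of genes averaging 1 CPM or more, 7.75% were lower without overlap, as was 1 of the 15 such genes here. DESeq2 called 1.48% of all genes lower on these counts. Mouse 19 was the top mouse in 0 of these 16 genes.

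Among 17 further red cell enzymes and maturation genes, 15 were tested, edgeR called 0 and 0 passed an unadjusted p of 0.05, with a median log2 fold change of 0.02. Bnip3l, which clears mitochondria from maturing red cells, was at 197 ± 20.8 and 218 ± 98.9 CPM, Mkrn1, a ubiquitin ligase, at 97.6 ± 1.34 and 120 ± 16.4 CPM, and Xpo7, an exportin, at 67.0 ± 8.10 and 71.3 ± 13.5 CPM. Mkrn1 was higher without overlap (8.19% of genes averaging 1 CPM or more were) and Bpgm, which makes the 2,3-bisphosphoglycerate that loosens oxygen from haemoglobin, was lower without overlap (7.75% were), at 6.29 to 7.49 CPM in Tet2-/- against 7.72 to 11.1 CPM in Tet2+/+ mice, each 1 of the 13 such genes here (adjusted p = 0.677 and 0.737, edgeR). Car2 was at 12.9 CPM in mouse 19 and 0.488 to 3.89 CPM in the others, and Mgst3 was at 3.21 ± 1.58 and 4.86 ± 3.47 CPM.

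The genes most like the members over the 6 mice were taken from those averaging 1 CPM or more by Pearson's r of log2(CPM + 1), as a description over 6 libraries that share their processing but differ in depth. For the summed adult globins they were 5930430L01Rik (r = 0.996), Rab4a (0.974), Fgfr1 (0.973), Zfp697 (0.968) and Mrvi1 (0.964). Without mouse 19, r was 0.966, 0.749, 0.812, 0.993 and 0.638 in the same order. For Epor they were Mrc2 (0.993), Prdm16 (0.990), Frmd6 (0.990), Islr (0.987) and Gm37167 (0.986), and Gm37167 was at 20.7 CPM in mouse 19 and 0 in the other 5 mice. Likeness to Epor picks genes that are highest in mouse 19, as a description with Prdm16 at 8.43 CPM against at most 0.211, Mrc2 at 8.01 against at most 0.758 and Islr at 5.14 against at most 0.775. Without mouse 19, r was 0.831, 0.527, 0.569 and 0.926 for the first 4 of these. For Slc4a1 they were D16Ertd472e (0.981), Gja1 (0.964), Rab23 (0.963), Gm13378 (0.950) and Psip1 (0.946), beside a member with at most 15 counts. For Tfrc they were Usp1 (0.988), Ajm1 (0.987), Dnajc13 (0.976), Edaradd (0.967) and Fbxo48 (0.966), each of which kept r of at least 0.941 without mouse 19. Without mouse 19, r to the globins thus lay between 0.638 and 0.993 and r to Tfrc between 0.941 and 0.973.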

How the data were processed

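RNA-seq libraries of sorted AML blasts (TruSeq v2, which does not mark strand) were quantified by the study with Salmon 0.12.0 on Ensembl transcripts of GRCm38 (mm10). The authors deposited an estimated count per transcript, not normalized between mice, and a TPM value, which corrects for effective transcript length and gives each mouse an equal sum. Estimated counts were summed here to GENCODE M21 genes and rounded to whole numbers, and the 112 transcripts without a gene (0.0307% to 0.0416% of counts) were left out. Genes were kept where counts scaled by library size came to 10 or more over the mice. The test was the quasi-likelihood test of edgeR (4.0.16, under R 4.3.3), with TMM factors, no covariates and Benjamini-Hochberg adjustment over all 22000 genes at a threshold of 0.05. The biological coefficient of variation was 43.6%. Single values were compared by exact two-sided permutation tests. The study used DESeq2 on length-scaled counts, which was run as an alternative with DESeq2 1.42.0, beside DESeq2 on the same counts, edgeR on length-scaled counts, RLE factors, library size only, members left out of the scaling, no filter, filterByExpr, robust estimation, limma 3.58.1 on log2 TPM with pseudocounts of 1 and 0.1, summed copies, and each mouse left out. The scripts were tested on simulated data.

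Nothing in the labels says more of the mice than 1 library each, so p-values measure the spread between these mice. Depth was 13036643 to 32855343 counts, and a count of 0 was read as up to 3 counts. Intervals and floors cover counting error only, since reads carry no molecular identifiers. Genes near copies or with antisense partners share reads. The members and gene lists were chosen with earlier results of these data known. Named in each list were genes past the threshold, the 3 with the highest mean CPM and the 2 with the largest absolute change among those with a mean of at least 1 CPM. Outside this rule, Urod, Fth1, Pcbp1, Slc2a1, Zfpm1, Gata1, Cbfa2t3, Bpgm, Klf1 and Car1 were chosen with their values known. Abundant markers were also named, and some genes of the lists, which stay in the counts, are not reported here by name. Promoters were from RefSeq (GRCm38.p6) and were searched with Python 3.11.15.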

Additional observations from a re-analysis of the deposited data

How the results depend on the processing

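Across 18 alternatives, 0 of the members given an adjusted p passed the threshold in either direction. The direction of Hba-a2, Alas2, Epor and summed alpha globin and of the chain balance held in every alternative that gave a value. Leaving out 1 mouse in turn, the log2 fold change ranged from -1.81 to 0.69 for Hba-a1, from -2.58 to 1.18 for Hbb-bs, from -2.79 to 2.04 for Hbb-bt, from -2.70 to 1.63 for summed beta globin and from -1.74 to 0.23 for Slc4a1. The upper end was in each case the value without mouse 19, and for Slc4a1 the value without mouse 8 was also above 0. That of Tfrc ranged from -0.16 to 0.33 and was below 0 without mice 23, 24 or 5. Tfrc was also below 0 on length-scaled counts (-0.32 with edgeR and -0.32 with DESeq2), with library size only (-0.13, where the median of all genes was at -0.17), with filterByExpr (-0.0039) and with limma on log2 TPM (-0.45 with a pseudocount of 1 and -0.47 with 0.1), and the cause was not tested. DESeq2 called 1 gene lower in the lists of red cell membrane (Cd59a) and erythropoietin receptor signalling (Gab1), on the same and on length-scaled counts, and 1 transcription factor (Zfpm1) on the same counts. Of all genes tested it called 1.48% lower on the same counts and 1.47% lower on length-scaled counts. On log2 TPM with limma (pseudocounts of 1 and 0.1) the value was -0.36 and -0.33 for summed beta globin, -0.44 and -0.40 for Hbb-bs, -0.27 and -0.06 for Hbb-bt, -0.32 and -1.59 for Alas2, -0.21 and -0.90 for Epor, -0.02 and -0.14 for Slc4a1, -0.70 and -1.54 for Hba-a1 and -1.61 and -3.08 for Hba-a2. On length-scaled counts Alas2 was at -3.50 with edgeR and -3.71 with DESeq2, and Hba-a1 at -1.40 and -1.44, and the cause of these moves was not tested. Alas2, Slc4a1 and Epor were removed by filterByExpr, so this alternative gave them no value. Summed copies gave a value for the 4 genes that are not copies. No paired analysis was possible because the genotypes share no mouse numbers.

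Depth limits what can be said of Alas2, Slc4a1 and Epor. Their highest libraries held 6, 15 and 26 counts, and differences of a few reads were not detectable.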
